A study of Mus musculus with 34 samples.

Results

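The 10 genes described here encode parts of the scaffold that holds the inner dynein arms of motile cilia in place. They comprise 6 subunits of the nexin-dynein regulatory complex (Drc1, Ccdc65, Drc3, Gas8, Drc7 and Iqcg), the 2 partners of the axonemal ruler (Ccdc39 and Ccdc40) and 2 inner-arm tether genes (Cfap73 and Cfap100). Members were the rows of the count table whose Ensembl identifier carries one of these symbols, 10 of 21647 genes. All 10 passed the low-count filter in every fit. The RNA came from ependymal cells, the multiciliated cells lining the brain ventricles, which were grown from the lateral ventricular walls of C57BL/6 mouse embryos at E18.5 and kept without serum for 4 days. Knockouts (KO, Rfx1-/-, Rfx2-/- or Rfx3-/-) were compared with wild-type siblings (WT, +/+) of their own line. There were 4 Rfx1 KO, 6 Rfx2 KO and 6 Rfx3 KO libraries, against 4, 8 and 6 WT libraries of those lines, 34 in all. The titles also carry the term OF1 in every group, which the labels do not explain. Whether the deletions were constitutive, and whether replicates came from separate embryos, is not given in the sources used here, so p-values measure the spread between these libraries.

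In a motile cilium, each doublet microtubule carries a repeating unit of dynein arms and radial spokes. The nexin-dynein regulatory complex joins neighbouring doublets and keeps their sliding in check, with Drc1 and Ccdc65 (also called Drc2) as coiled-coil partners at its base and Gas8 (Drc4) beside them. Ccdc39 and Ccdc40 form a coiled-coil ruler along the doublet that sets the spacing of the repeat, and loss of either in humans causes primary ciliary dyskinesia with missing inner arms. In the green alga Chlamydomonas, the counterparts of Cfap73 and Cfap100 form a complex that holds an inner-arm dynein. RFX proteins are transcription factors, known for X-box sites near the start of many ciliary genes.

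Library depth ran from 18.2 to 53.4 M counts. The genes measured here had between 506 and 16083 reads in every library except for Cfap73, which had 6 to 636. The targeted gene differed by -1.40 (log2, adjusted p = 0.0687) in Rfx1 KO, -1.13 (1.34e-05) in Rfx2 KO and -2.14 (4.16e-05) in Rfx3 KO, by edgeR. By the same test, Rfx2 (-0.56, adjusted p = 0.00861) and Rfx1 (-0.45, 0.0111) were also lower in Rfx3 KO. Levels are given as CPM (counts scaled to library size, with TMM over the 34 libraries). Foxj1, the master regulator of motile cilia, was at 1290 to 2018 CPM in Rfx1 KO and 1528 to 1955 CPM in Rfx1 WT. In the Rfx2 line it was at 638.9 to 827 CPM in KO and 813 to 1466 CPM in WT (log2 difference -0.62, adjusted p = 0.000978 by edgeR). In the Rfx3 line it was at 676.5 to 1473 CPM in KO and 1431 to 1714 CPM in WT (-0.53, 0.0706). Some libraries stood apart from others of their group in these genes. Rfx3_KO replicates 4 to 6 had lower Foxj1 and Mcidas than replicates 1 to 3, and Rfx2_WT replicates 1 and 5 were the lowest WT libraries of their line. In bulk RNA, fewer multiciliated cells and less RNA per cell cannot be told apart. The counting strand is not given in the sources used here. Reads from stretches shared with genes on the opposite strand may therefore have been included or left out. Lrch3 overlaps 48.1% of the exon bases of Iqcg and Ttc14 16.9% of those of Ccdc39. Ddx54 overlaps 8.47% of those of Cfap73 and Zxdc 0.29% of those of Cfap100.

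The promoters are shown because most of these genes moved together in the Rfx2 and Rfx3 lines and because RFX proteins are known to read such sequences. RefSeq promoter windows (GRCm38.p6; 250 bases before to 50 bases from the transcription start) matched 9 of the 10 genes; Cfap73 had no window. An X-box-like pair of elements (GTNNCC, a gap of 0 to 3 bases, then NGNAAC, on either strand) was present in 2 of 9 windows, Drc3 and Ccdc65, and in 5.3% of all 32851 windows. The single element GTTGCC was found in 4 of 9 (12.5% of all windows) and GTTACC in 2 of 9 (7.2%), on either strand. At least one of these patterns was present in 8 of 9 windows, against 21.1% of all. A match describes the letters only. Starts here are those of RefSeq and, for some genes, differ from the ends of the GENCODE gene spans given below. The Cfap100 stretch lies wholly inside its GENCODE span. The stretches below run 5′ to 3′ on the gene's strand, for 130 bases before the start and the first 20 transcribed bases, with matches in capitals. In Drc3 and Ccdc65 the paired pattern begins 2 and 13 bases before the start. Most of the Drc3 match therefore lies in transcribed bases, and the Ccdc65 match ends before the start. Drc1 and Iqcg hold GTTGCC on the opposite strand 11 bases and on the gene's strand 19 bases before the start. Iqcg also has a match on the opposite strand 119 bases before the start, and Cfap100 holds GTTGCC from transcribed base 10. Gas8, not printed, holds GTTGCC 98 bases (opposite strand) and 54 bases before the start, and from transcribed base 41. Ccdc39 and Drc7, also not printed, hold GTTACC 4 bases before the start (opposite strand) and from transcribed base 1. Ccdc40 holds none, and its window is 74.3% G and C.
Drc3, chr11:60353250-60353399, plus strand: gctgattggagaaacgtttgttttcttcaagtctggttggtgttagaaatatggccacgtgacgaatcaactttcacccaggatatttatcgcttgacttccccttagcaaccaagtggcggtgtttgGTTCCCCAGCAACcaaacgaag
Ccdc65, chr15:98708064-98708213, plus strand: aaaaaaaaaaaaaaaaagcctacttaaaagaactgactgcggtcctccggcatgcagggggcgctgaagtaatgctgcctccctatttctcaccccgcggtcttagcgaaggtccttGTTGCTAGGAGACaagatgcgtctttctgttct
Drc1, chr5:30281263-30281412, plus strand: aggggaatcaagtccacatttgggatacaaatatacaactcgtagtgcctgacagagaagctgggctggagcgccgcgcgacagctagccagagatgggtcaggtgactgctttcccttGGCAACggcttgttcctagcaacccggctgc
Iqcg, chr16:33056167-33056316, minus strand: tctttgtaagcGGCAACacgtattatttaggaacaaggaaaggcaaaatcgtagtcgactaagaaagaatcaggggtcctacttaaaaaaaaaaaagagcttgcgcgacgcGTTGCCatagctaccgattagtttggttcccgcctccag
Cfap100, chr6:90428461-90428610, minus strand: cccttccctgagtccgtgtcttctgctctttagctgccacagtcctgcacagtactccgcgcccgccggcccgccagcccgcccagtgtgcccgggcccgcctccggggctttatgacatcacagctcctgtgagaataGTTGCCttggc
Ccdc40, chr11:119228442-119228591, plus strand: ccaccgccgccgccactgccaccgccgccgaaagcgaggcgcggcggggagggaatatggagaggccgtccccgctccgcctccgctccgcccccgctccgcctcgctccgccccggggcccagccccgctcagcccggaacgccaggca

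In wild-type cells of the Rfx3 line, the members' levels were compared per kb of annotated exon, with bases shared with other genes included. Drc1 (57.7 ± 4.66 CPM per kb, SD, n = 6) and Drc3 (57.0 ± 4.18) were the highest and did not differ beyond their spread. Ccdc40 (42.5 ± 4.17), Iqcg (39.2 ± 2.29), Ccdc39 (38.9 ± 2.49), Ccdc65 (38.6 ± 2.66) and Drc7 (38.1 ± 7.06) followed, each differing from the next by less than the larger of their SDs. Cfap100 (25.5 ± 2.02), Gas8 (17.5 ± 1.19) and Cfap73 (11.9 ± 1.90) lay below them, each apart from its neighbours by more than an SD. Cfap73, with 0.92 kb of exon, was the lowest of the 10 in the Rfx1 (10.3 ± 2.85, n = 4) and Rfx2 (7.35 ± 2.10, n = 8) wild types too.

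**Figure D1:**
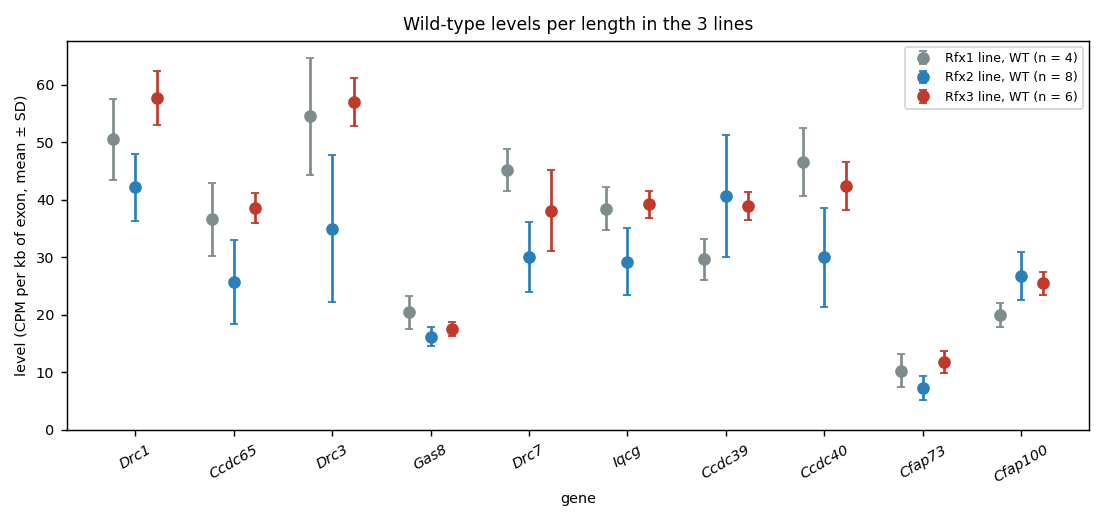
Wild-type levels of the 10 genes per kb of exon (CPM per kb, linear axis from 0), with points for the mean and bars for the SD over the 4, 8 and 6 WT libraries of the Rfx1, Rfx2 and Rfx3 lines. Drc1 and Drc3 are at or near the top in each line, and Cfap73 is at the bottom.

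The knockouts were compared with their wild types to show which genes differed in each line. In Rfx2 KO, 9 of the 10 genes were called lower, where 18.4% of all genes tested were. The exception, Cfap73, was also lower (-0.48, log2) but not called (edgeR adjusted p = 0.102). In Rfx3 KO all 10 were called lower, where 12.9% of all genes were. In each of these lines 10 members had an unadjusted edgeR p under 0.05, against 6044 (Rfx2) and 5363 (Rfx3) of all genes. In Rfx1 KO none was called by edgeR, and 0.00723% of all genes were called lower; 0 members had an unadjusted p under 0.05, against 281 of all genes, and DESeq2 and limma-voom also called 0 members. The members' median log2 difference was -0.86 in Rfx2 KO (range -1.43 to -0.41), -1.01 in Rfx3 KO (-3.39 to -0.46) and 0.02 in Rfx1 KO (-0.08 to 0.09). The medians over all genes were 0.013, 0.024 and 0.003 for those lines. KO libraries lay below every WT library for 7 of 10 genes in the Rfx2 line (6.69% of all genes) and for 10 of 10 in the Rfx3 line (9.39%).

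**Figure D2:**
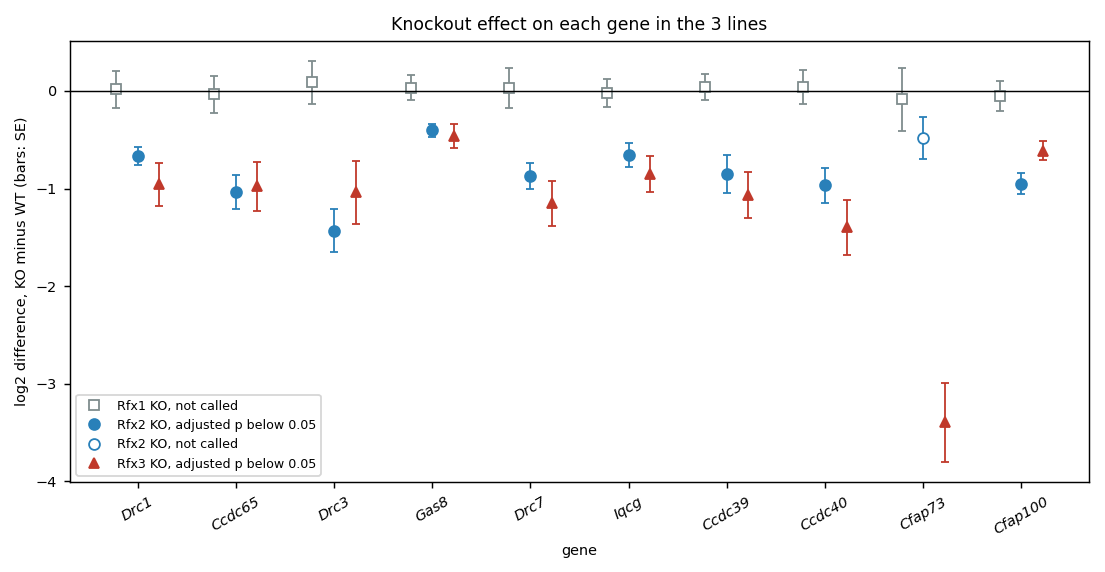
Log2 difference, KO minus WT, of each gene in the Rfx1, Rfx2 and Rfx3 lines, with bars for the SE of the fit and filled symbols for an adjusted p below 0.05. Rfx1 KO values lie between -0.08 and 0.09, and Cfap73 in Rfx3 KO (-3.39) stands far below the other values.

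Drc1 (ENSMUSG00000073102, chromosome 5, 30281388 to 30366695, GRCm38) encodes a base-plate subunit of the nexin link. In Rfx3 KO libraries it was at 44.5 to 117 CPM (median 75.7), against 137 to 174.5 CPM (median 153) in WT. In Rfx2 KO libraries it was at 65.2 to 80.1 CPM (median 71.6), against 84.7 to 133 CPM (median 116) in WT. KO and WT did not overlap in either line. The log2 difference was -0.96 (SE 0.22, adjusted p = 0.00933) in Rfx3 KO and -0.67 (SE 0.09, 0.000193) in Rfx2 KO. Its partner Ccdc65 (ENSMUSG00000003354, chromosome 15, 98708207 to 98723336), with the paired promoter pattern shown above, was at 19.8 to 59.1 CPM (median 38.2) in Rfx3 KO, against 70.4 to 85.2 CPM (median 75.7) in WT. In the Rfx2 line Ccdc65 was at 21.7 to 29.0 CPM (median 25.1) in KO, against 30.6 to 78.1 CPM (median 52.3) in WT. Again no KO library reached a WT library of its line. Ccdc65 fell by 0.98 (SE 0.25, adjusted p = 0.0149) in Rfx3 KO and by 1.03 (SE 0.18, 0.000664) in Rfx2 KO, on the log2 scale.

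Drc3 (ENSMUSG00000056598, chromosome 11, 60353329 to 60394341), a subunit of the link known in Chlamydomonas, had the largest decrease of the 10 in Rfx2 KO. It was at 52.1 to 67.8 CPM (median 58.7) in Rfx2 KO, against 88.1 to 265.5 CPM (median 155) in WT, or -1.43 on the log2 scale (SE 0.22, adjusted p = 0.000341). The 6 Rfx2 KO values were close together and all below WT, while the WT values were spread widely. In Rfx3 KO Drc3 was at 49.4 to 194 CPM (median 129), against 239 to 282 CPM (median 255) in WT, with a log2 difference of -1.04 (SE 0.32, adjusted p = 0.0356). Rfx3_KO replicates 1 to 3 were at 191, 186 and 194 CPM and replicates 4 to 6 at 65.6, 72.5 and 49.4 CPM, all below WT. The Rfx3 call was lost in 9 of 12 fits that each left out a library (Rfx3_KO replicates 4, 5 and 6 and each of the 6 Rfx3_WT replicates), with adjusted p from 0.051 to 0.0732 and log2 differences from -1.06 to -0.87.

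Gas8 (ENSMUSG00000040220, chromosome 8, 123518834 to 123536650) had the smallest change of the nexin-link genes. It was at 38.1 to 63.7 CPM (median 50.7) in Rfx3 KO, against 64.8 to 77.3 CPM (median 69.97) in WT. In the Rfx2 line it was at 47.8 to 52.1 CPM (median 49.9) in KO, against 53.1 to 75.8 CPM (median 65.9) in WT. The groups did not overlap in either line, but the highest KO and lowest WT libraries were close. The log2 difference was -0.46 (SE 0.13, adjusted p = 0.02) in Rfx3 KO and -0.41 (SE 0.07, 0.000545) in Rfx2 KO. Without Rfx3_WT replicate 3 the Rfx3 call was lost (-0.43, adjusted p = 0.0509). Drc7 (ENSMUSG00000031786, chromosome 8, 95055103 to 95078141), known for a part in the sperm flagellum of mice, was at 26.0 to 77.2 CPM (median 46.5) in Rfx3 KO, against 89.3 to 149.7 CPM (median 109) in WT. In Rfx2 KO it was at 44.4 to 54.1 CPM (median 51.0), against 59.6 to 119 CPM (median 93.2) in WT. Drc7 fell by 1.15 (SE 0.23, adjusted p = 0.00583) in Rfx3 KO and by 0.87 (SE 0.13, 0.000296) in Rfx2 KO on the log2 scale, with no overlap of KO and WT.

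Iqcg (ENSMUSG00000035578, chromosome 16, 33012683 to 33056218), a calmodulin-binding subunit also called Drc9, was at 87.2 to 193 CPM (median 123.5) in Rfx3 KO, against 225 to 265 CPM (median 242) in WT. In Rfx2 KO it was at 102 to 128.5 CPM (median 116.5), against 134 to 243 CPM (median 182) in WT. No KO library reached a WT library of its line. The log2 difference was -0.85 (SE 0.18, adjusted p = 0.00771) in Rfx3 KO and -0.66 (SE 0.12, 0.00114) in Rfx2 KO. Lrch3, which overlaps its exons on the other strand, had smaller differences of -0.22 (adjusted p = 0.0328) and -0.12 (0.0233) in those lines.

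**Figure D3:**
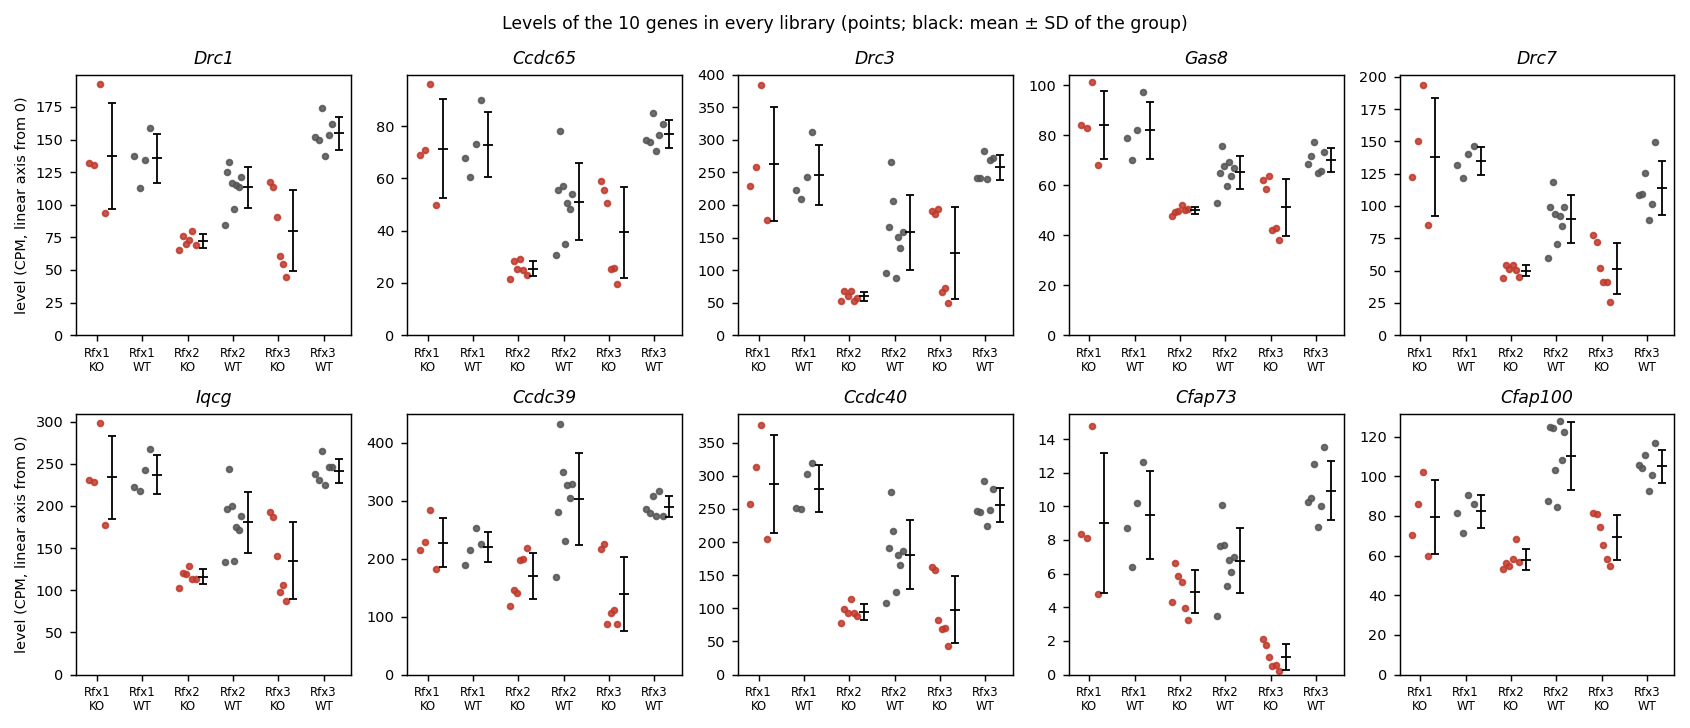
Levels of the 10 genes (CPM, linear axes from 0) with a point for each library and black marks for the mean ± SD of each group; KO (red) stands left of WT (grey) for the Rfx1, Rfx2 and Rfx3 lines. Cfap73 in Rfx3 KO lies between 0.235 and 2.14 CPM, below all other groups, while Rfx1 KO and WT overlap for every gene.

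The ruler genes fell in both lines. Ccdc39 (ENSMUSG00000027676, chromosome 3, 33812362 to 33844310) was at 87.5 to 225 CPM (median 108) in Rfx3 KO, against 274 to 316.5 CPM (median 282.5) in WT, or -1.07 on the log2 scale (SE 0.24, adjusted p = 0.00903). In Rfx2 KO it was at 118 to 218 CPM (median 172), against 168 to 432 CPM (median 316) in WT, or -0.86 on the log2 scale (SE 0.20, 0.00412). The Rfx2 groups overlapped, with 3 of 6 KO libraries below every WT. Rfx2_KO replicates 1 to 3 were at 118, 146 and 141 CPM and replicates 4 to 6 at 198, 199 and 218 CPM. Pdgfra, a marker of oligodendrocyte precursors, was at 64.5 to 100.4 CPM in Rfx2_KO replicates 1 to 3 and at 1.78 to 5.49 CPM in replicates 4 to 6. It was also at 70.2 and 85.8 CPM in Rfx2_WT replicates 1 and 2, and at 1.92 to 10.1 CPM in the other Rfx2_WT libraries. The part of Pdgfra, or of the cells it marks, in this difference was not tested. Ttc14, on the other strand, differed by -0.15 (adjusted p = 0.0336) in Rfx3 KO and by less than 0.01 (0.976) in Rfx2 KO. Within Rfx2 KO it was at 181 to 188 CPM in replicates 1 to 3 and at 232 to 261 CPM in replicates 4 to 6. This is the same split and direction as for Ccdc39, and the part of Ttc14 reads in it was not tested.

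Ccdc40 (ENSMUSG00000039963, chromosome 11, 119228572 to 119265238) was at 43.1 to 163 CPM (median 76.8) in Rfx3 KO, against 224 to 292 CPM (median 247.5) in WT. Its log2 difference of -1.40 (SE 0.28, adjusted p = 0.00581) was the largest after that of Cfap73 among the 10 in this line. In Rfx2 KO it was at 77.5 to 114.5 CPM (median 92.8), against 108 to 275 CPM (median 184) in WT, or -0.97 on the log2 scale (SE 0.18, 0.00108). In the Rfx3 line the groups were well apart, and in the Rfx2 line 5 of 6 KO libraries lay below every WT.

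The tether genes parted from each other. Cfap73 (ENSMUSG00000094282, chromosome 5, 120628335 to 120634235) was at 2.14, 1.77, 1.06, 0.532, 0.557 and 0.235 CPM in Rfx3_KO replicates 1 to 6, against 8.78 to 13.5 CPM (median 10.4) in WT. The KO libraries held 6 to 82 Cfap73 reads each. The fitted decrease was 10.5-fold, or -3.39 on the log2 scale (SE 0.41, adjusted p = 0.000505), the 10th lowest of 14340 genes tested. It remained called without each library in turn, from -3.77 to -3.20. In Rfx2 KO, Cfap73 was at 3.23 to 6.63 CPM (median 4.90), against 3.47 to 10.1 CPM (median 6.92) in WT. These groups overlapped, and the log2 difference of -0.48 (SE 0.21, adjusted p = 0.102) was not called. It was called without Rfx2_WT replicate 1, the lowest WT library (-0.57, adjusted p = 0.0243). Ddx54, on the other strand, was at 50.7 ± 1.60 CPM in Rfx3 KO and 61.8 ± 3.17 CPM in Rfx3 WT (SD, n = 6 each). It was called lower in Rfx3 KO (-0.29, log2, edgeR adjusted p = 0.00273) and not called in Rfx2 KO (0.04, 0.538). The part of Ddx54 reads in the Cfap73 difference was not tested.

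Cfap100 (ENSMUSG00000048794, chromosome 6, 90403479 to 90428797) was at 54.8 to 81.2 CPM (median 69.95) in Rfx3 KO, against 92.7 to 117 CPM (median 105) in WT, or -0.61 on the log2 scale (SE 0.10, adjusted p = 0.00253). In Rfx2 KO it was at 53.3 to 68.5 CPM (median 56.6), against 84.6 to 128 CPM (median 115) in WT. KO and WT did not overlap in either line. The Rfx2 difference of -0.95 (SE 0.11, adjusted p = 4.97e-05) had the smallest p of the 10 genes there.

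In the Rfx1 line the KO and WT libraries overlapped for every gene. Drc3 was at 229.5, 258.5, 383.5 and 178 CPM in Rfx1_KO replicates 1 to 4, against 223, 209, 243 and 312 CPM in WT. Cfap73 was at 8.34, 8.10, 14.8 and 4.81 CPM in KO, against 8.69, 6.42, 10.2 and 12.7 CPM in WT. Ccdc40 was at 258, 314, 377 and 204 CPM in KO, against 252, 249.1, 302 and 319.9 CPM in WT. For each of the 10 genes, Rfx1_KO replicate 3 was above every WT library and replicate 4 was below every WT library. The SE of the log2 difference ran from 0.13 (Gas8) to 0.32 (Cfap73), which sets the size of change that could be seen with 4 libraries a group.

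Every library was also set against the mean log2 level of the wild types of its line. Rfx3_KO replicates 1 to 6 had a mean over the 10 genes of -0.60, -0.66, -1.09, -1.66, -1.64 and -2.10. Mcidas, a regulator that starts the multiciliated programme, was at 0.02, -0.02, -0.46, -2.21, -2.04 and -2.79 in those libraries, and Foxj1 at -0.07, -0.11, -0.15, -1.04, -1.03 and -1.19. Pdgfra was at 39.8, 4.91, 5.14, 99.9, 134 and 45.3 CPM in them, against 1.995 to 4.01 CPM in Rfx3_WT replicates 1 to 5 and 102 CPM in replicate 6. The part of these genes, or of the cells they mark, in the members' decrease was not tested. In replicates 1 and 2, where Mcidas was within 0.02 of the WT mean, Cfap73 was at -2.31 and -2.57 and the mean of the other 9 genes at -0.41 and -0.45. In those libraries Ccdc40 was at -0.65 and -0.69, and Gas8 at -0.17 and -0.26. Rfx3_KO replicate 3 had the ruler genes Ccdc39 at -1.72 and Ccdc40 at -1.62, beside -1.46 and -1.89 in replicate 4. In the same library Drc3 (-0.40) and Gas8 (-0.14) were near their values in replicates 1 and 2 (Drc3 -0.43 and -0.46). The other members were also lower in replicate 3 than in replicates 1 and 2. Drc7 was at -1.12 (-0.54 and -0.63 in replicates 1 and 2), Iqcg at -0.78 (-0.32 and -0.37) and Drc1 at -0.77 (-0.40 and -0.44). Cfap73 was at -3.28, and Ccdc65 (-0.60) and Cfap100 (-0.49) were lower by less.

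**Figure D4:**
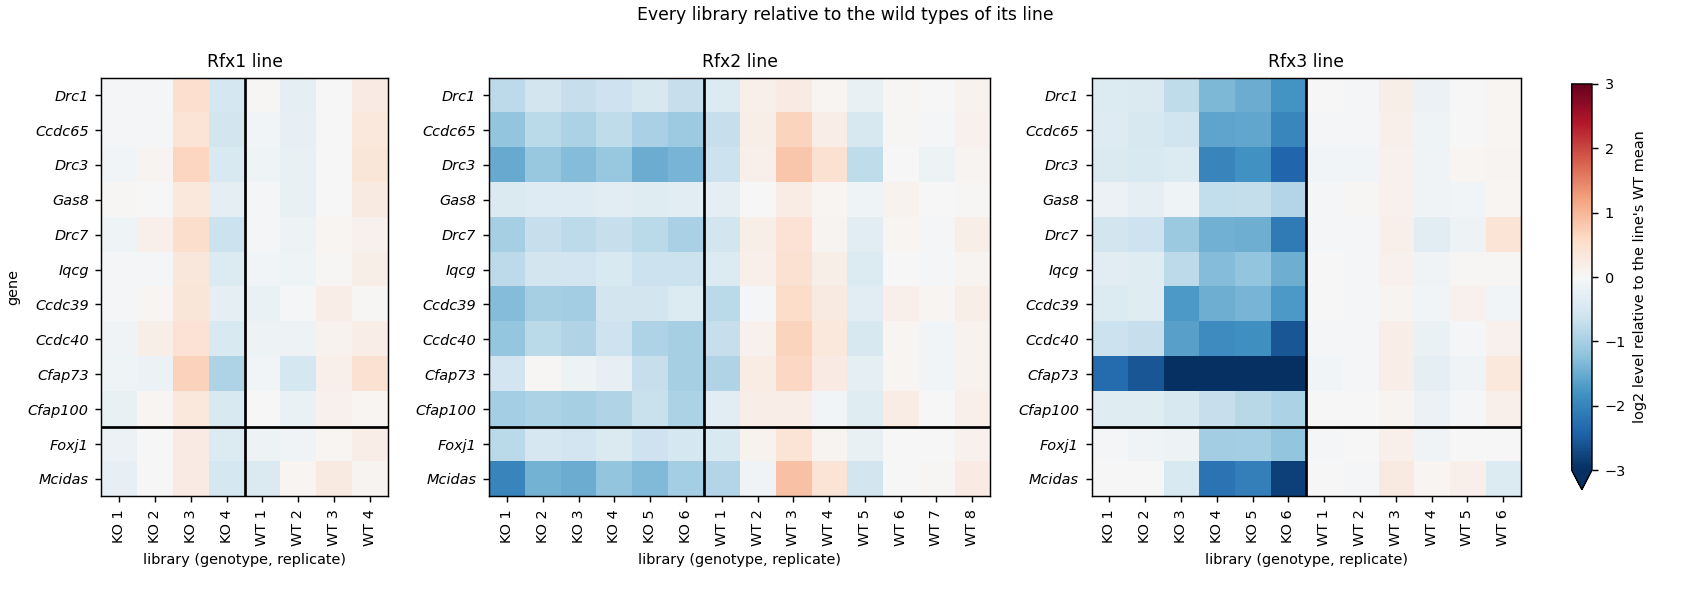
Log2 level of the 10 genes, Foxj1 and Mcidas in every library relative to the WT mean of its line, with KO libraries left of the black line and WT libraries right of it; values under -3 have the darkest blue. Cfap73 is dark in all 6 Rfx3 KO libraries, while Mcidas is dark in replicates 4 to 6 only.

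Rfx2_KO replicates 1 to 6 had a narrower range of means over the 10 genes, -0.98, -0.69, -0.78, -0.63, -0.76 and -0.85, with Mcidas between -1.98 and -1.03. Among their wild types, replicate 1 was at -0.57, replicate 5 at -0.38 and replicate 3 at 0.49. With each of the 14 libraries left out in turn, 9 members were called, or 10 without Rfx2_WT replicate 1. With replicates 4 and up only (3 KO, 5 WT), which all had low Pdgfra, 10 of 10 were called (2172 of 14434 genes tested were lower) and the median was -0.75. With replicates 1 to 3 only (3 KO, 3 WT), 1 of 10, Cfap100, was called (672 of 14315 genes lower), with a median of -0.99.

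Whether the effects differed between lines was tested in a fit of all libraries. Between the Rfx3 and Rfx2 effects, 1 of 10 genes differed, Cfap73, by -2.93 (SE 0.43, adjusted p = 7.09e-05), where 2.1% of all genes were lower. That call was kept without each of the 26 libraries of these lines in turn, from -3.31 to -2.70. Drc3 (0.38, SE 0.37, adjusted p = 0.622) and Cfap100 (0.33, SE 0.16, 0.271) had the highest values in the other direction, and neither was called. The difference for the other 7 genes ran from -0.44 (Ccdc40, SE 0.31) to 0.04 (Ccdc65, SE 0.30), which does not show that they were equal.

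Between the Rfx3 and Rfx1 effects, 6 of 10 genes were called (4.79% of all genes lower): Cfap73 (-3.30, adjusted p = 0.000222), Ccdc40 (-1.43, 0.0165), Drc7 (-1.17, 0.0194), Drc1 (-0.96, 0.0295), Iqcg (-0.82, 0.0379) and Ccdc39 (-1.10, 0.0393). This count hung on single libraries. It was 1 without Rfx1_KO replicate 3, 2 without Rfx1_WT replicate 2, and 3 without Rfx1_WT replicate 1, Rfx3_KO replicate 4, Rfx3_KO replicate 5 or Rfx3_WT replicate 3. It was 10 without Rfx3_KO replicate 1 or 2. Cfap73 was called in each of these fits. Between the Rfx2 and Rfx1 effects, 1 gene was called (0.593% of all genes lower), Cfap100 at -0.88 (SE 0.18, adjusted p = 0.0118). It was lost without Rfx1_KO replicate 3 (adjusted p = 0.0635) and with the replicate number as a block (0.0982). Drc3 was called as a second gene without Rfx1_KO replicate 4 (0.0497), Rfx2_WT replicate 1 (0.043) or Rfx2_WT replicate 5 (0.0377). Any 2 of these contrasts have the libraries of a line in common.

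Partners were compared by the log2 ratio of their CPM in each library, over 3 pairs in 3 lines (9 exact permutation tests, two-sided, adjusted over the 9). Cfap73 over Cfap100 was -6.27 ± 0.86 in Rfx3 KO and -3.27 ± 0.12 in Rfx3 WT (SD, n = 6 each), a difference of -2.996 (exact permutation p = 0.00216, the smallest this design allows; adjusted 0.0195). KO ratios ran from -7.52 to -5.21 and WT ratios from -3.39 to -3.11, so every KO library was below. In the Rfx2 line this ratio was -3.58 ± 0.44 in KO (n = 6) and -4.06 ± 0.31 in WT (n = 8), a difference of 0.48 (exact permutation p = 0.0333, adjusted 0.0749). It was called without Rfx2_KO replicate 5 or 6 (adjusted 0.0487 in both). In the Rfx1 line it differed by -0.07 (exact permutation p = 0.8).

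Drc1 over Ccdc65 was 1.51 ± 0.13 in Rfx2 KO (n = 6) and 1.19 ± 0.23 in Rfx2 WT (n = 8), a difference of 0.33 (exact permutation p = 0.00799, adjusted 0.036), with overlap of the groups. That call was lost without any of Rfx2_KO replicates 1, 2 and 3 or Rfx2_WT replicates 2, 4, 6, 7 and 8, with adjusted p from 0.0524 to 0.0649. In Rfx3 KO and Rfx3 WT the same ratio was 1.06 ± 0.14 and 1.01 ± 0.03. Ccdc39 over Ccdc40 was 0.55 ± 0.31 in Rfx3 KO and 0.18 ± 0.14 in Rfx3 WT (n = 6 each), a difference of 0.37 that was not called (exact permutation p = 0.0216, adjusted 0.0649) except without Rfx3_KO replicate 3 (0.46, adjusted 0.00974). Within pairs of the same replicate number no ratio was called; the smallest p of such a test with 6 pairs is 0.0312, which gave an adjusted p of 0.0938.

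**Figure D5:**
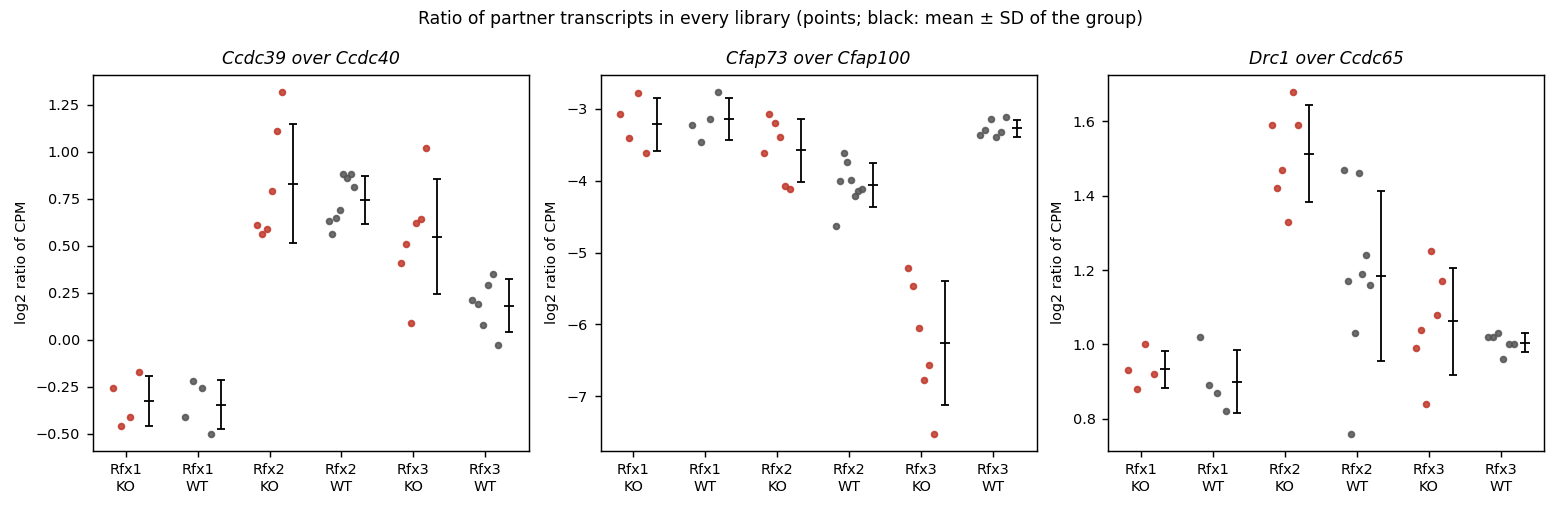
Log2 ratio of partner transcripts (CPM) in every library, with points for libraries and black marks for the mean ± SD of a group; KO (red) stands left of WT (grey) in each line. For Cfap73 over Cfap100, Rfx3 KO libraries lie between -7.52 and -5.21, below the WT libraries at -3.39 to -3.11.

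Other genes of the same structures were counted from lists. Of 6 further nexin-link genes (Tcte1, Fbxl13, Efcab2, Iqcd, Iqca and Ccdc153), 6 fell in Rfx3 KO (median log2 difference -1.68; Efcab2 -0.90, adjusted p = 0.00169) and 6 in Rfx2 KO (-1.40; Ccdc153 -2.45, 0.000291). Of 6 genes for the tether head, spoke base and neighbouring parts of the repeat, 6 fell in Rfx3 KO (median -1.28; Cfap43 -1.34, adjusted p = 0.00393) and 6 in Rfx2 KO (-0.92; Ccdc96 -0.84, 0.000488). Of 12 inner-arm dynein genes, 12 were called lower in Rfx3 KO (median -1.48, with Dnah7c at -1.51, edgeR adjusted p = 0.00158). In Rfx2 KO 10 of them were called lower (median -0.88, with Dnali1 at -0.83, adjusted p = 0.00043). Dnah7a (-0.24, adjusted p = 0.166) and Dnah7b (-0.40, 0.0595) were not called in Rfx2 KO, and Dnah7a, Dnah7b and Dnah7c are close paralogues whose reads may be split between them. The Rfx3 and Rfx2 effects differed for 1 of these 24 genes, where 2.1% of all genes were called lower. That gene was Dnah7c, lower in the Rfx3 line (-1.0, SE 0.26, edgeR adjusted p = 0.0228). In Rfx1 KO none of the 24 was called.

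Of 6 regulators of multiciliated cells, none was called in Rfx3 KO (median -0.64; Foxj1 -0.53, adjusted p = 0.0706) and 5 fell in Rfx2 KO (-0.77; Mcidas -1.49, 0.00048). Ependymal markers were called lower for 6 of 8 in Rfx3 KO and 6 of 7 tested in Rfx2 KO. Oligodendrocyte-lineage markers summed to 200.2 to 567 CPM in Rfx3 KO, against 114 to 330.5 CPM in Rfx3 WT, with 2 of 6 called higher. They summed to 94.3 to 347 CPM in Rfx2 KO, against 93.6 to 287 CPM in Rfx2 WT, with none of 6 called. Astrocyte markers summed to 1899 to 4366 CPM in Rfx3 KO, against 1482 to 3922 CPM in Rfx3 WT, and to 5198 to 10010 CPM in Rfx2 KO, against 4019 to 7749 CPM in Rfx2 WT, with 2 of 6 called higher in each line. Neuronal markers had 1 lower and 1 higher call of 7 tested in Rfx3 KO and none of 6 in Rfx2 KO, microglial markers had none of 6 in either, and choroid plexus markers had 2 of 4 and 1 of 4 called lower in Rfx3 KO and Rfx2 KO. Beside these counts, 1517 genes were called higher and 1857 lower of all 14340 tested in Rfx3 KO. In Rfx2 KO, 1988 were called higher and 2638 lower of 14305. No marker was at 0 in every library of a group, and in Rfx1 KO none of these lists had a call. The part of these cell types in the members' decrease was not tested.

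Wild-type levels themselves differed between lines for 8 of 10 genes, as they did for 57.7% of all genes, and line and any batch cannot be told apart. Ccdc65 averaged 72.9 ± 12.5 CPM in Rfx1 WT (n = 4), 51.1 ± 14.6 in Rfx2 WT (n = 8) and 76.9 ± 5.29 in Rfx3 WT (n = 6; adjusted p = 0.0255). Cfap100 averaged 82.4 ± 8.27, 110.3 ± 17.2 and 105 ± 8.31 CPM in those groups (adjusted p = 0.0158). Ccdc39 (adjusted p = 0.192) and Cfap73 (0.0788) were not called. Ttc14, which overlaps Ccdc39, was at 80.9 ± 0.99 CPM in Rfx1 WT, 212 ± 19.4 in Rfx2 WT and 118 ± 4.92 in Rfx3 WT, and its part in the Ccdc39 level was not tested.

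Across the 34 libraries, which share lines and genotypes, each gene's log2 CPM was correlated with the mean of the other 9. Pearson's r was highest for Drc1 (0.978), Iqcg (0.977) and Ccdc40 (0.975) and lowest for Cfap100 (0.751), Cfap73 (0.788) and Ccdc39 (0.79). Outside the 10, the genes whose pattern was most like their mean among 12488 genes were Kif9 (r = 0.994), Ccdc180 (0.992), Cdkl4 (0.991), Cfap65 (0.988) and Wdr60 (0.987).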

How the data were processed

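Per the submitters' processing notes, reads were handled with CASAVA 1.8.2, STAR 2.4 and featureCounts 1.4.6 on GRCm38; settings and strandedness are unstated in the sources used here. Per the labels, libraries followed the TruSeq RNA protocol. The authors deposited raw counts per Ensembl gene, and 21583 of 21647 identifiers matched GENCODE M21, which gave symbols and positions.

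Each line was fitted alone in edgeR 4.0.16 (R 4.3.3; filterByExpr with a minimum count of 10 and total of 15, TMM, two-sided quasi-likelihood F test), tested on simulated data first. P-values were adjusted by Benjamini-Hochberg over all genes kept and called under 0.05. Differences between lines and between wild types came from the same test on all 34 libraries. Levels are CPM with TMM over the 34 libraries; log2 CPM used a prior count of 2. SE of log2 differences derive from the test statistic.

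Named genes were all 10 members, the listed gene of smallest p per list and line, Foxj1, Mcidas, the RFX genes, and the 5 genes most correlated with the members; Pdgfra, overlapping genes, Rfx2-uncalled paralogues and the markers' sums were added beside results. Members and lists were chosen with earlier results of these data known. Replicates were no copies of each other (chi-squared per degree of freedom of at least 4.05 in 85 pairs). Deviations of same-numbered KO and WT libraries correlated with r from 0.14 to 0.58 in the 6 Rfx2 pairs. The library of the same number was the best match in 3 of these 6. In the Rfx1 line r ran from -0.06 to 0.33, and in the Rfx3 line from -0.33 to 0.2. The main tests did not pair libraries by number in any line, and the replicate block was used only as an alternative. Alternatives were DESeq2 1.42.0, limma-voom 3.58.1, RLE scaling, no filter, all libraries in a fit, the replicate block, subsets of Rfx2 replicates, a prior count of 0.5, and leaving out each library.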

Additional observations from a re-analysis of the deposited data

Results flagged for a closer look

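Cfap100 in Rfx2_KO replicate 5 was at 68.5 CPM, apart from the other 5 KO libraries at 53.3 to 58.1 CPM. It was the 1 value of this kind among 60 groups, where chance would flag about 1 in 20.

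Effects that differed between lines were those of Cfap73 between Rfx3 and Rfx2 (-2.93, log2, adjusted p = 7.09e-05 by edgeR), of Cfap73 (-3.30), Ccdc40 (-1.43), Drc7 (-1.17), Ccdc39 (-1.10), Drc1 (-0.96) and Iqcg (-0.82) between Rfx3 and Rfx1, and of Cfap100 between Rfx2 and Rfx1 (-0.88).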

How the results depend on the processing

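Of 1490 values of single genes or ratios under an alternative, 1403 kept their side of the threshold, 65 lost their call and 22 gained one. Of the 1403, 42 changed sign with no call on either side; no called value changed sign. With replicates 1 to 3 only, 1 member was called in Rfx2 KO. With the replicate block, 0 were called for the Rfx2 minus Rfx1 effect and 0 partner ratios were called. The ratio test within 6 pairs allows no p below 0.0312. A ratio alone at that p would have an adjusted p of 0.281, so that test could not have called 1 ratio alone. The block changed no other call of a gene or count. Leaving out each library in turn gave 0 members called in Rfx1 KO, 9 to 10 in Rfx2 KO, 8 to 10 in Rfx3 KO, 1 for the Rfx3 minus Rfx2 effect, 1 to 10 for Rfx3 minus Rfx1, 0 to 2 for Rfx2 minus Rfx1, and 1 to 4 partner pairs. Other settings gave 7 to 9 members called between wild types: Drc1 lost its call with no low-count filter (adjusted p = 0.0614) and Cfap73 gained one with limma-voom (0.0135). The cause was not tested. Rfx1 KO had 4 libraries a group, and Cfap73 as few as 6 reads in a library, which limit what could be seen.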
